A study of Mus musculus with 47 samples.

Results

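The 28 genes described here encode enzymes of cholesterol synthesis and the proteins that sense, store and export sterols, and they were chosen by gene symbol for those roles from the 24391 symbols in each count table. They fall into 8 enzymes of the route to squalene, 10 enzymes from squalene to cholesterol, 4 proteins of SREBP2 control, and 6 proteins of sterol transport, storage and efflux, the LXR receptors among them. Of the 28, 27 had reads. Hmgcs1, which encodes the synthase that makes HMG-CoA, was listed at 0 in all 47 libraries, so nothing can be said of it from these counts.

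Transcripts were counted in brown fat, white fat and gastrocnemius muscle of C57Bl6 mice, whose age is not given in the sources used here. 3P10 mice carried HT1080 tumours, grown from a human fibrosarcoma cell line, and received 3P10, an antibody against the GDF15 receptor GFRAL, at 3 mg/kg weekly from day 0. IgG1 mice carried the same tumours and received an IgG1 control antibody on that schedule, and NTB mice bore no tumour and have no dose in their own labels. Tissue was taken on day 21, so IgG1 against NTB joins tumour and control antibody, and 3P10 against IgG1 is the comparison of the antibodies within tumour-bearing mice. The immune status of the mice is not stated. Brown fat gave 6 3P10, 5 IgG1 and 6 NTB libraries, and white fat and muscle gave 5 libraries in each group. The labels do not say that the libraries of a group came from separate mice, so the p-values measure the spread between these samples.

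Cells make cholesterol from acetyl-CoA through mevalonate, squalene and lanosterol. When membrane sterol falls, the escort protein SCAP carries SREBP2 out of the endoplasmic reticulum to be cut, and the released factor switches on the synthesis enzymes, while INSIG proteins hold the complex back when sterol is plentiful. When sterol is in excess, oxysterols activate the nuclear receptors LXR alpha and LXR beta (Nr1h3 and Nr1h2), which switch on the exporters ABCA1 and ABCG1. In fat, much of the body's free cholesterol sits in adipocyte membranes and around the lipid droplet, and in muscle the pathway also supplies prenyl groups and ubiquinone.

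The promoter sequences below are shown because they carry short DNA motifs of both control arms, for 3 genes that the results turn on or set beside them and for Hmgcs1. They are RefSeq sequences of build GRCm38.p6, 5′ to 3′ on the gene's strand, from 250 bases before the annotated start to 50 after it, and the capitals mark matches on either strand to TCACNCCAC (a form of the sterol regulatory element), CCAAT (the box bound by NF-Y, a partner of SREBP2) or GGTTA and GGTCA with 5 free bases between them (a form of the direct repeat bound by LXR). The letters of the repeat were chosen after the Abca1 promoter had been read. Hmgcs1 lies at chr13:119690101-119690400 on the plus strand, Nsdhl at chrX:72918271-72918570 on the plus strand, Abca1 at chr4:53159846-53160145 on the minus strand and Srebf1 at chr11:60210422-60210721 on the minus strand.
Hmgcs1: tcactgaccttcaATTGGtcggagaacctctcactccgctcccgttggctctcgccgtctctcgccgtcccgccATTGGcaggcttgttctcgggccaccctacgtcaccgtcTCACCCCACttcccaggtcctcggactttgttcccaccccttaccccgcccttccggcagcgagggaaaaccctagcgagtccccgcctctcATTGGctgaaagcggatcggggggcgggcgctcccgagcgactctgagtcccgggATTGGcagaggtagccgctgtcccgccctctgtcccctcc
Nsdhl: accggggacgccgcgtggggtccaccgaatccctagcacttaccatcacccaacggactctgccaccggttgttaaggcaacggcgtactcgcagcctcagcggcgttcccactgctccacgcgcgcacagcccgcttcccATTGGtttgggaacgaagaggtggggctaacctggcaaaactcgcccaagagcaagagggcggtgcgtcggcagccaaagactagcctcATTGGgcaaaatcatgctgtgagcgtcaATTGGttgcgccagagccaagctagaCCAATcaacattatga
Abca1: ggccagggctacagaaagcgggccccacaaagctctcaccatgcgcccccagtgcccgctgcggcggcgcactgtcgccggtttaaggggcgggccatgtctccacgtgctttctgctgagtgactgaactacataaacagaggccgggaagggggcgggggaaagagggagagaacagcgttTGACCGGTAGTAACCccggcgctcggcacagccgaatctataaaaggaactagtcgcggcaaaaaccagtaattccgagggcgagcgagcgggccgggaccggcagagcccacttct
Srebf1: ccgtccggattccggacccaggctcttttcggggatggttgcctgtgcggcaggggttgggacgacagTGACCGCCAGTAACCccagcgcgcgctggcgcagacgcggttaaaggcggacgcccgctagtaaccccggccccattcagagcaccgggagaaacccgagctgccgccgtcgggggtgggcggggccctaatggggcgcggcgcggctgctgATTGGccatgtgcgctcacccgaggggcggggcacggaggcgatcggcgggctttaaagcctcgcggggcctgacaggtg

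Of the 28 genes, 23 had an entry in the promoter table. Sqle, Fdft1, Fdps, Stard4 and Abcg1 had none and were not searched. CCAAT stood in the promoters of 18 of the 23, among them all 9 enzymes from squalene to cholesterol that had an entry, against 41.1% of 27025 genes in the table. TCACNCCAC stood in Hmgcs1 alone of the 23, against 1.44% of all genes. The repeat was in Abca1, 67 bases before the start, and in 13 of the 27025 genes, or 0.0481%. Srebf1, which encodes the fatty acid regulator SREBP1 and is a textbook LXR target outside the 28, was another of those 13, with the repeat 182 bases before the start. It is shown because it matched. Of 27 listed pathway genes outside the 28 with an entry, it was the only 1 with the repeat, so the other listed LXR targets with an entry lacked it. The same search with GGTCA at both ends found 0 of the 23, against 0.0851% of all genes. These matches describe the letters of the windows and do not show binding.

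Brown fat libraries were shallow, at 0.799 to 2.46 M counts each, with M for mega. Those of muscle held 24.8 to 33.5 M and those of white fat 18.6 to 80.7 M. Levels are counts per M after TMM scaling (CPM) and are compared within a tissue only, since each tissue was scaled apart. For counting error alone, a count of 0 allows up to 1.25 to 3.68 CPM in a brown fat library, while the limit is 0.0838 to 0.143 CPM for muscle and 0.0395 to 0.161 CPM for white fat. The tissues held their own markers, with summed brown adipocyte genes at 6449 to 10468 CPM in brown fat, adipocyte genes at 23622 to 33358 CPM in white fat and skeletal muscle genes at 148794 to 278665 CPM in muscle. Some libraries stood apart from their groups. White fat IgG1 replicates 2 and 4 held 3286 and 3143 CPM of Ucp1, against at most 712 CPM in the other white fat libraries, and the keratin Krt14 reached 283 CPM in replicate 4 of that pair. Replicate 4 was also the deepest white fat library, at 80.7 M counts, against at most 34.4 M in the others. Its title carries a sample index far above those of the other white fat titles. In muscle, 3P10 replicate 2, IgG1 replicates 2 and 4 and NTB replicate 3 separated from the rest, and the called genes there are given with and without them. Their endothelial marker sums were the lowest in muscle, at 67.1 to 89.9 CPM, against 117 CPM or more in the other muscle libraries. These libraries carry the title numbers 15, 14, 23 and 16, the highest among the muscle titles. The labels do not say whether the numbers mark an order or a batch. The white fat pair carries 14 and 23, so the numbers of the pair stood apart in both tissues. In such bulk samples fewer cells of a type and less RNA per cell cannot be told apart.

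After filtering, 27 of the 28 genes were tested in muscle, 27 in white fat and 22 in brown fat. A gene was called at an adjusted p under 0.05 in edgeR's quasi-likelihood test, with Benjamini-Hochberg adjustment over all genes tested in the tissue. IgG1 against NTB and 3P10 against IgG1 share the IgG1 libraries, so their folds tend to run against each other by construction.

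**Figure D1:**
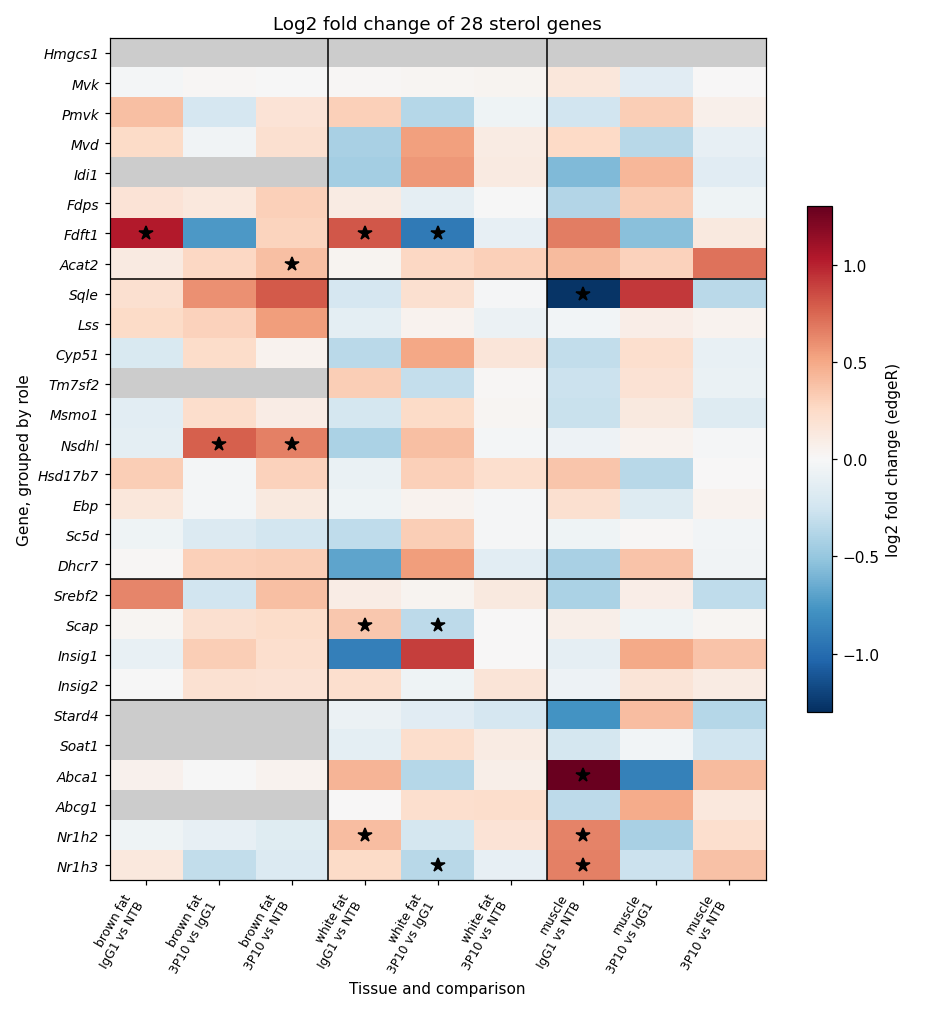
Log2 fold change from edgeR for the 28 genes (rows, grouped by role) in 3 comparisons in each of 3 tissues (columns). Red is higher in the group named first, blue lower, grey not tested, and a star marks an adjusted p under 0.05; stars are few, and the LXR receptors and Abca1 in muscle and Fdft1 in all tissues carry most of the strong red of IgG1 against NTB.

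Muscle held the clearest change. In IgG1 against NTB the LXR receptors and the exporter Abca1 were higher, while most enzymes from squalene to cholesterol had negative folds. Nr1h2, Nr1h3 and Abca1 rose, the squalene epoxidase gene Sqle fell, and the other 23 genes tested did not pass. These 4 of 27 are 14.8%, against 5.6% of the 13283 genes tested in muscle (2.68% higher, 2.92% lower). The median log2 fold change over the 27 was -0.07, against 0.01 over all genes.

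Abca1, which pumps cellular cholesterol out to apolipoproteins, had 23.8, 25.5, 47.3, 31.9 and 55.2 CPM in IgG1 muscle and 18.04, 17.05, 8.26, 14.6 and 17.4 CPM in NTB muscle. Every IgG1 library lay above every NTB library, and IgG1 replicates 3 and 5 were the highest of all. The log2 fold change was 1.29, SE 0.27, adjusted p = 0.0138 by edgeR, which is the largest rise among the 27. The 3P10 libraries held 21.6, 11.9, 17.5, 21.9 and 27.04 CPM, overlapping both groups. Against IgG1 they gave -0.88, SE 0.27, adjusted p = 0.212 by edgeR, and against NTB 0.41, SE 0.27, adjusted p = 1 by edgeR, so neither difference passed.

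Nr1h2 encodes LXR beta, the receptor found in most tissues, and it had 65.4, 50.4, 42.4, 53.5 and 47.0 CPM in IgG1 muscle and 30.8, 31.9, 33.7, 36.1 and 32.7 CPM in NTB muscle. The groups did not overlap, and the log2 fold change was 0.65, SE 0.14, adjusted p = 0.0124 by edgeR. Nr1h2 in 3P10 muscle lay at 49.9, 38.7, 33.4, 34.9 and 35.9 CPM, with 1 library within the IgG1 levels and 4 below them, and gave -0.43, SE 0.13, adjusted p = 0.229 by edgeR against IgG1. Nr1h3 encodes LXR alpha, the receptor of liver, fat and macrophages, and had 14.8, 21.4, 17.2, 21.3 and 17.8 CPM in IgG1 muscle and 10.5, 9.33, 13.4, 11.9 and 13.7 CPM in NTB muscle. These groups also stood apart, narrowly, at 0.65, SE 0.16, adjusted p = 0.0275 by edgeR. In 3P10 muscle Nr1h3 had 13.7, 19.8, 13.8, 11.9 and 17.2 CPM, which overlapped both groups, at -0.28, SE 0.16, adjusted p = 0.577 by edgeR against IgG1.

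The calls of Abca1 and Nr1h2 held in all 7 other fits and with any of the 10 libraries left out, where Abca1 ranged from 1.09 to 1.41 and Nr1h2 from 0.55 to 0.71 on the log2 scale. Without 3P10 replicate 2, IgG1 replicates 2 and 4 and NTB replicate 3 together, Abca1 gave 1.33, adjusted p = 0.00613, Nr1h2 0.65, adjusted p = 0.0291, and Nr1h3 0.55, adjusted p = 0.0488, all by edgeR. The Nr1h3 call ended without IgG1 replicate 2 or 4 or NTB replicate 1, 2 or 4, where the adjusted p of edgeR ran from 0.0617 to 0.0809. That call also ended in the fit with the replicate number as a block.

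Abcg1, the second exporter, did not follow Abca1. It had 1.11, 0.604, 0.840, 0.674 and 0.855 CPM in IgG1 muscle and 0.871, 1.11, 1.15, 1.40 and 0.657 CPM in NTB muscle, with overlap, at -0.34, SE 0.27, adjusted p = 0.523 by edgeR. Soat1, which esterifies cholesterol for storage, gave -0.22, adjusted p = 0.462 by edgeR. Stard4, a carrier of sterol through the cytosol, was low in the 4 libraries that stood apart. It had 0.641 CPM in 3P10 replicate 2, 0.647 and 0.827 CPM in IgG1 replicates 2 and 4, and 0.621 CPM in NTB replicate 3, against 1.70 CPM or more in the other 11.

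Of the 8 listed LXR targets and lipoprotein receptors outside the 28, all tested in muscle, 2 rose, 1 fell and 5 did not pass in IgG1 against NTB, with a median of 0.47. Among all genes 2.68% were called higher and 2.92% lower. Srebf1 had 89.5, 70.2, 61.4, 69.3 and 101 CPM in IgG1 muscle and 53.8, 34.3, 29.5, 56.7 and 53.0 CPM in NTB muscle, with no overlap, at 0.78, SE 0.20, adjusted p = 0.0356 by edgeR. Mylip, which marks lipoprotein receptors for degradation, had 27.98, 30.9, 27.9, 33.6 and 31.3 CPM in IgG1 muscle and 21.9, 18.96, 16.1, 22.4 and 18.99 CPM in NTB muscle, again apart, at 0.63, SE 0.14, adjusted p = 0.0178 by edgeR. Pltp, the phospholipid transfer protein and another LXR target, fell, with 8.84, 7.89, 10.5, 7.42 and 11.5 CPM in IgG1 muscle and 13.4, 14.5, 15.95, 12.7 and 13.8 CPM in NTB muscle, at -0.61, SE 0.15, adjusted p = 0.0264 by edgeR. So the listed LXR targets did not all move one way. The call of Srebf1 ended without IgG1 replicate 2, 4 or 5 or NTB replicate 1 or 2, at an adjusted p of edgeR up to 0.0960. The call of Mylip ended without IgG1 replicate 4 or NTB replicate 2, at up to 0.0531, and that of Pltp without IgG1 replicate 2 or 4 or NTB replicate 1, 2 or 5, at up to 0.0772. With the compared groups alone the calls of Srebf1 and Pltp also ended. Without the 4 libraries that stood apart Srebf1 gave 0.77, adjusted p = 0.0361, Mylip 0.50, adjusted p = 0.0618, and Pltp -0.40, adjusted p = 0.136, by edgeR.

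**Figure D2:**
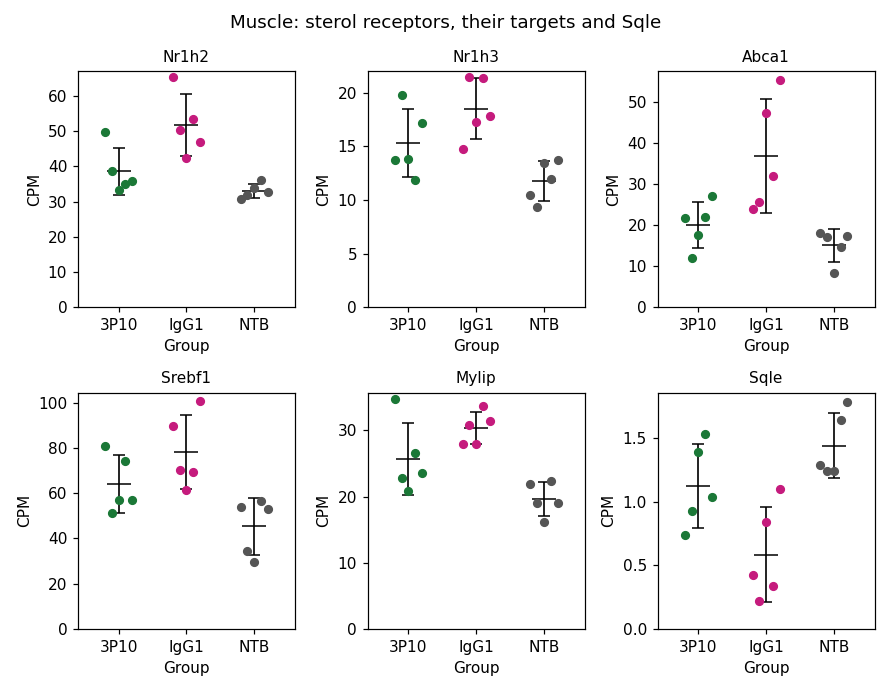
CPM of 6 genes in each muscle library (points) with the group mean and SD (bars), for 3P10, IgG1 and NTB (n = 5 each). Nr1h2, Nr1h3, Abca1, Srebf1 and Mylip are higher in all IgG1 libraries than in all NTB libraries, Sqle is lower in all, and 3P10 lies between or overlaps.

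Macrophages express Abca1 and Nr1h3 strongly, and their 8 listed markers were summed beside these results. The sums were 54.0 to 84.1 CPM in 3P10 muscle, 53.3 to 70.5 CPM in IgG1 muscle and 50.4 to 82.7 CPM in NTB muscle, 0 of 8 markers passed in IgG1 against NTB, and 4 of 8 had a positive fold. Adipocyte marker sums were 294 to 805 CPM in IgG1 muscle and 234 to 760 CPM in NTB muscle, with 6 of 6 positive and 0 called. Fibroblast markers fell in 2 of 6, with sums of 448 to 600 CPM in IgG1 muscle and 699 to 833 CPM in NTB muscle, which did not overlap. The median log2 fold change was 0.57 over the adipocyte markers and -0.48 over the 5 endothelial markers, of which 0 were called. The part of macrophages, adipocytes, fibroblasts and endothelial cells in these results was not tested.

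In the synthesis arm of muscle, 0 of 7 tested enzymes to squalene and 1 of 10 from squalene to cholesterol passed in IgG1 against NTB, and 8 of those 10 had a negative fold, with a median of -0.17. Of all genes 51.6% had a positive fold in that comparison. Of the 7 enzymes to squalene 4 had a positive fold, with a median of 0.15. Sqle, which makes the epoxide of squalene and is a control point of the route, had 0.421, 0.216, 0.840, 0.337 and 1.1 CPM in IgG1 muscle and 1.29, 1.24, 1.24, 1.64 and 1.78 CPM in NTB muscle. The groups did not overlap, at -1.28, SE 0.35, adjusted p = 0.0458 by edgeR. These are 5 to 36 reads in an IgG1 library and 26 to 47 in an NTB library, and 3P10 muscle held 0.735, 0.926, 1.39, 1.53 and 1.03 CPM. The Sqle call ended when any of 8 libraries was left out (IgG1 replicates 1 to 4 and NTB replicates 1, 2, 4 and 5), at an adjusted p of edgeR from 0.0507 to 0.122. That call also ended with no filter and with the compared groups alone. Without the 4 libraries that stood apart Sqle gave -0.89, adjusted p = 0.127 by edgeR. Fdps, which makes the farnesyl chain shared by sterols and prenylated proteins, had 11.9, 14.6, 10.7, 11.98 and 12.4 CPM in IgG1 muscle and 14.4, 14.3, 17.9, 17.02 and 16.7 CPM in NTB muscle. Its fold of -0.38, SE 0.11, did not pass, adjusted p = 0.0580 by edgeR, but passed without the 4 libraries, at -0.42, adjusted p = 0.0367.

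SREBP2 control in muscle gave 0 calls among 4 genes. Srebf2 itself had 15.6, 6.64, 14.4, 8.43 and 12.9 CPM in IgG1 muscle and 17.4, 13.8, 7.88, 21.7 and 16.2 CPM in NTB muscle, and the lowest values of each group were again the libraries that stood apart. Scap gave 0.08, Insig1 -0.11 and Insig2 -0.07 on the log2 scale.

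In 3P10 against IgG1 muscle 0 of the 27 were called, where 0.211% of all genes were (0.0903% higher). At the looser threshold of an unadjusted p under 0.05 in edgeR there were 7 of the 27. The share of all genes at that threshold was not counted, so the 7 cannot be set against it. Those 7 were Abca1, Nr1h2, Fdft1, Sqle, Fdps, Pmvk and Insig1. Each of them had the sign opposite to its fold in IgG1 against NTB, which the shared IgG1 libraries favour. In 3P10 against NTB muscle 0 of 27 were called, and 0 of all genes. Nr1h3 alone had an unadjusted p under 0.05 there, at 0.38, SE 0.16.

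The genes that passed in brown fat were not those of muscle. The tissues differ in depth and library kit, and no test compared them. Nsdhl, an enzyme of the removal of the C4 methyl groups from lanosterol, rose in 3P10, and Fdft1 rose in IgG1 against NTB, while the LXR receptors and Abca1 were not called. In 3P10 against IgG1 the call was 1 of 22, or 4.55%, against 11.6% of the 8711 genes tested (6.05% higher).

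Nsdhl had 44.7, 43.9, 78.4, 56.4, 50.2 and 71.6 CPM in 3P10 brown fat and 39.8, 28.4, 30.8, 42.5 and 29.2 CPM in IgG1 brown fat. The lowest 3P10 library lay just above the highest IgG1 library, and 3P10 replicates 3 and 6 were highest. The log2 fold change was 0.78, SE 0.20, adjusted p = 0.0139 by edgeR, and the call held in all 7 other fits and with any of the 11 libraries left out, at 0.65 to 0.88. In NTB brown fat Nsdhl had 29.4, 61.9, 33.8, 35.2, 30.1 and 32.5 CPM, so 5 of 6 libraries lay below all 3P10 libraries and replicate 2 lay among them. 3P10 against NTB gave 0.65, SE 0.18, adjusted p = 0.0402 by edgeR, a call that ended when any of 8 libraries was left out (3P10 replicates 3, 4 and 6 and NTB replicates 1, 3, 4, 5 and 6), at an adjusted p of edgeR from 0.0590 to 0.119.

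Acat2, which joins acetyl-CoA units at the start of the route, also passed in 3P10 against NTB, so that 2 of 22 genes, or 9.09%, passed there, against 5.75% of all genes (3.03% higher, 2.72% lower). It had 261, 261, 333, 266, 240 and 286 CPM in 3P10 brown fat and 195, 289, 205, 161, 231 and 181 CPM in NTB brown fat, with overlap through NTB replicate 2, at 0.39, SE 0.11, adjusted p = 0.0435 by edgeR. Its call ended when any of 7 libraries was left out (3P10 replicates 3, 4 and 6 and NTB replicates 1, 3, 4 and 6), at 0.0617 to 0.114. The near-identical Acat3 could share reads with it, so its value is uncertain. In IgG1 brown fat Acat2 had 236, 211, 214, 240 and 237 CPM, below most 3P10 libraries, at 0.27, SE 0.12, adjusted p = 0.137 by edgeR for 3P10 against IgG1.

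Most other enzymes of this arm had positive folds in 3P10 against NTB that did not pass. Of 9 tested enzymes from squalene to cholesterol 8 had a positive fold, with a median of 0.30, against 0.00 over all genes, and 1 was called. Of all genes 49.7% had a positive fold in that comparison. Sqle had 26.7, 18.2, 42.5, 16.5, 18.4 and 40.3 CPM in 3P10 brown fat and 18.4, 30.4, 9.50, 13.1, 16.7 and 10.3 CPM in NTB brown fat, with overlap, at 0.80, SE 0.28, adjusted p = 0.0872 by edgeR. Lss, which closes the sterol rings, gave 0.54, SE 0.23, adjusted p = 0.172 by edgeR, and Sc5d, a late desaturase, gave -0.24. The same libraries, 3P10 replicates 3 and 6, were highest for Nsdhl and for Sqle.

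**Figure D3:**
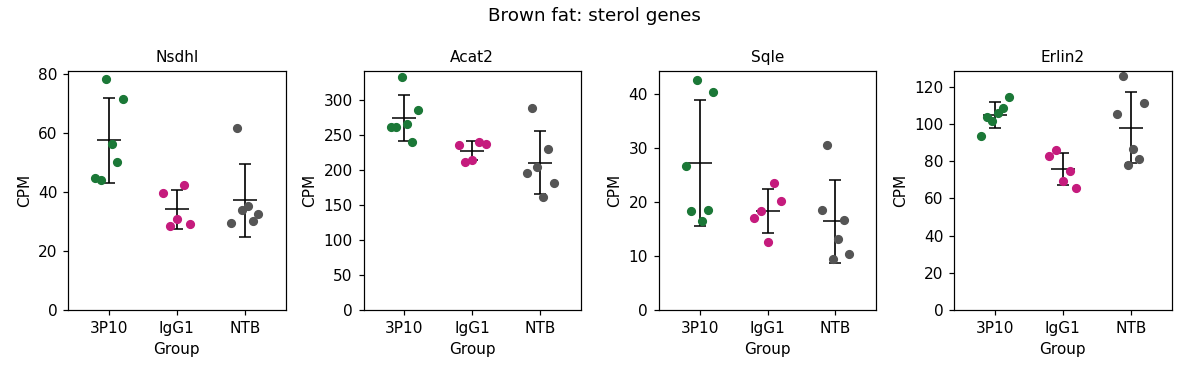
CPM of Nsdhl, Acat2, Sqle and Erlin2 in each brown fat library (points) with the group mean and SD (bars), for 3P10 (n = 6), IgG1 (n = 5) and NTB (n = 6). All 3P10 libraries lie above all IgG1 libraries for Nsdhl and Erlin2, and NTB replicate 2 is the high NTB point for Nsdhl, Acat2 and Sqle.

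The members of SREBP2 control and of sterol transport, storage and efflux gave 0 calls in brown fat. Srebf2 in IgG1 against NTB had 19.3, 18.3, 27.4, 21.7 and 19.4 CPM in IgG1 brown fat and 12.3, 20.3, 10.6, 16.4, 14.2 and 8.13 CPM in NTB brown fat, with overlap, at 0.63, SE 0.23, adjusted p = 0.130 by edgeR. Nr1h3 had 81.4, 79.6, 90.1, 75.8, 68.6 and 84.2 CPM in 3P10 brown fat and 90.9, 85.2, 122, 108 and 96.4 CPM in IgG1 brown fat, at -0.32, SE 0.11, adjusted p = 0.0579 by edgeR. Abca1 was level, at 0.05, SE 0.14 in IgG1 against NTB and -0.00, SE 0.13 in 3P10 against IgG1. Of the 6 genes not tested in brown fat, Idi1, Tm7sf2, Stard4, Soat1 and Abcg1 lay at 0 to 15.9 CPM, with at most 19 reads in a library, so changes in them were not detectable at this depth.

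Among the listed pathway genes in brown fat, Erlin2 rose in 3P10 against IgG1. It encodes a protein of the complex that degrades sterol-regulated membrane proteins, and 1 of the 7 tested genes of that list passed. Of all genes 11.6% were called in that comparison. Erlin2 had 93.7, 104, 102, 106, 109 and 115 CPM in 3P10 brown fat and 82.9, 86.1, 69.5, 75.0 and 65.8 CPM in IgG1 brown fat, with no overlap, at 0.46, SE 0.12, adjusted p = 0.0161 by edgeR. The call ended without IgG1 replicate 5, at 0.0550. In 3P10 against NTB, Aacs, which activates acetoacetate for lipid synthesis, rose by 0.50, SE 0.14, adjusted p = 0.0353 by edgeR. Lpcat3, which builds unsaturated phospholipids and is an LXR target, rose by 0.39, SE 0.11, and Pltp fell by 0.64, SE 0.18, both at adjusted p = 0.0414 by edgeR. These 3 calls ended when any of 7 to 9 libraries was left out. Skeletal muscle marker sums ran from 33.2 to 2082 CPM over the brown fat libraries, and with the muscle score as a term Nsdhl stayed called in both of its comparisons, while Acat2, Aacs, Lpcat3 and Pltp did not. Brown adipocyte marker sums were 7433 to 10468 CPM in 3P10, 6785 to 8339 CPM in IgG1 and 6449 to 8578 CPM in NTB brown fat. Of these 6 genes 3 rose and 1 fell in 3P10 against IgG1, and 1 rose in 3P10 against NTB. Endothelial sums were 459 to 665 CPM in 3P10, 414 to 931 CPM in IgG1 and 650 to 942 CPM in NTB, and of 4 genes tested 1 fell in 3P10 against IgG1 and 2 in 3P10 against NTB. Fibroblast sums were 427 to 556 CPM in 3P10, 469 to 733 CPM in IgG1 and 510 to 715 CPM in NTB, and of 6 genes 2 fell in 3P10 against IgG1 and 3 in 3P10 against NTB. The part of these cell types in the brown fat results was not tested.

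Fdft1 encodes squalene synthase, which commits the pathway to sterols, and had a positive fold in IgG1 against NTB in all 3 tissues. In brown fat it had 23.9, 16.5, 30.8, 38.9 and 35.9 CPM in IgG1 and 9.81, 16.2, 11.6, 17.2, 15.9 and 14.04 CPM in NTB. Only IgG1 replicate 2 fell within the NTB values, and the log2 fold change was 1.03, SE 0.28, adjusted p = 0.0450 by edgeR. It was the 1 call among 22 genes, or 4.55%, where 2.97% of all genes were called (1.86% higher), and it rests on 18 to 48 reads in an IgG1 library and 8 to 21 in an NTB library. The call ended when any of 9 libraries was left out (IgG1 replicates 1, 3, 4 and 5 and NTB replicates 1, 2, 3, 5 and 6), at an adjusted p of edgeR from 0.0608 to 0.154. In 3P10 brown fat Fdft1 had 14.4, 9.12, 18.4, 35.9, 11.3 and 17.01 CPM, with replicate 4 at the IgG1 levels and the rest near NTB, at -0.74, SE 0.26, adjusted p = 0.0693 by edgeR against IgG1.

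In white fat Fdft1 had 168, 189, 133, 328 and 214 CPM in IgG1 and 100, 115, 129, 117 and 129 CPM in NTB. The groups did not overlap, at 0.81, SE 0.21, adjusted p = 0.0309 by edgeR. IgG1 replicate 4, the deepest white fat library, was far above the rest. 3P10 white fat held 138, 83.4, 87.4, 107 and 131 CPM, with replicate 1 just inside the IgG1 range, at -0.92, SE 0.21, adjusted p = 0.0245 by edgeR against IgG1. In muscle Fdft1 had 98.5, 222, 115, 169 and 111 CPM in IgG1 and 93.8, 88.7, 116, 68.0 and 85.1 CPM in NTB, with overlap, at 0.67, SE 0.21, adjusted p = 0.0747 by edgeR. The highest muscle values were those of IgG1 replicates 2 and 4, and without the 4 libraries that stood apart the muscle fold was 0.37, adjusted p = 0.0826.

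In the GENCODE annotation an exon of Fdft1 overlaps an exon of Ctsb, the gene of the protease cathepsin B, on the opposite strand over 774 bases. The strand setting of the counting is not given in the sources used here, so if it was unstranded, reads of the pair cannot be told apart. Scap, Cyp51, Hmgcs1, Idi1 and Lss share 221, 166, 458, 323 and 150 exon bases with other genes on the opposite strand, under the same limit. Fdps shares 197 exon bases with Gm43738 and Tm7sf2 shares 14 with Vps51 on the same strand. No strand setting would tell the reads of those bases apart. Ctsb itself gave 0.26, SE 0.12, adjusted p = 0.261 in brown fat, -0.27, SE 0.17, adjusted p = 0.302 in white fat and -0.08, SE 0.12, adjusted p = 0.764 in muscle for IgG1 against NTB, all by edgeR. In white fat its levels were 2106, 1256, 1743, 1256 and 1706 CPM in IgG1 and 1732, 1895, 1776, 2341 and 1998 CPM in NTB. The part of Ctsb reads in the Fdft1 counts was not tested.

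**Figure D4:**
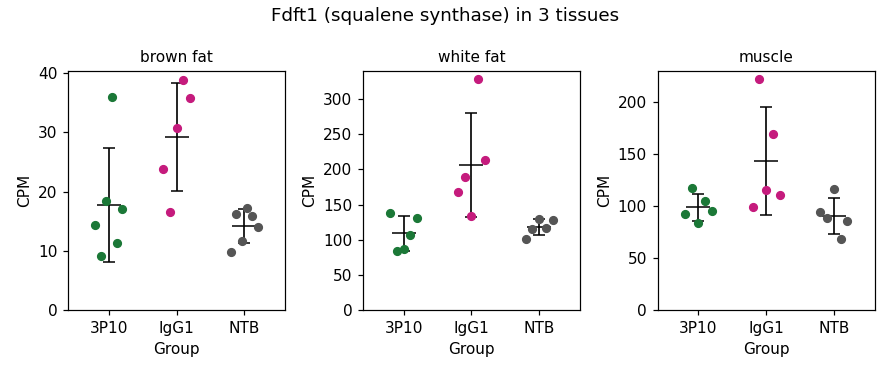
CPM of Fdft1 in each library (points) of brown fat, white fat and muscle, with the group mean and SD (bars), for 3P10, IgG1 and NTB. IgG1 lies highest in all 3 tissues, clear of NTB in white fat, with 1 IgG1 library inside the NTB values in brown fat and overlap in muscle.

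White fat gave 3 calls in IgG1 against NTB, Fdft1, Scap and Nr1h2, all higher. It gave 3 in 3P10 against IgG1, Fdft1, Scap and Nr1h3, all lower. Each count is 3 of 27, or 11.1%, set beside 8.64% of the 14402 genes tested for IgG1 over NTB (4.09% higher) and 7.42% for the antibody comparison (3.46% lower, 3.96% higher), so the members were called about as often as other genes. Each of these 6 calls ended when IgG1 replicates 2 and 4 were both left out.

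Scap, the escort of SREBP2, had 47.2, 47.0, 56.0, 43.6 and 56.8 CPM in 3P10 white fat, 57.7, 64.0, 64.5, 70.4 and 60.9 CPM in IgG1 and 53.3, 53.0, 46.2, 43.3 and 53.9 CPM in NTB. All IgG1 libraries lay above all others, at 0.35, SE 0.10, adjusted p = 0.0424 by edgeR against NTB and at -0.34, SE 0.10, adjusted p = 0.0488 by edgeR for 3P10 against IgG1. Nr1h2 had 68.2, 64.9, 74.3, 73.0 and 66.0 CPM in IgG1 and 55.0, 54.2, 49.7, 46.7 and 57.2 CPM in NTB, with no overlap, at 0.40, SE 0.10, adjusted p = 0.0258 by edgeR. Its 3P10 levels of 56.1, 66.8, 66.6, 48.1 and 58.8 CPM overlapped both, at -0.22, SE 0.10, adjusted p = 0.150 by edgeR against IgG1. Nr1h3 had 72.1, 73.5, 78.3, 73.8 and 85.1 CPM in 3P10 white fat and 118, 101, 96.4, 88.6 and 87.5 CPM in IgG1, with no overlap, at -0.36, SE 0.10, adjusted p = 0.0382 by edgeR. In NTB it had 73.9, 91.0, 81.9, 86.0 and 80.2 CPM, and IgG1 against NTB gave 0.25, SE 0.10, adjusted p = 0.102 by edgeR.

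Abca1 in white fat also had a positive fold in IgG1 against NTB, which did not pass. It had 296, 356, 338, 289 and 282 CPM in IgG1 and 178, 220, 273, 261 and 218 CPM in NTB, with no overlap, at 0.44, SE 0.13, adjusted p = 0.0521 by edgeR. 3P10 white fat had 226, 290, 203, 241 and 251 CPM, at -0.37, SE 0.13, adjusted p = 0.0960 by edgeR against IgG1. Whether the muscle and white fat folds of IgG1 against NTB differed was tested as an interaction in a joint fit of both tissues. All 15 title numbers occur in both tissues with the same condition, and the labels do not say whether a number marks a mouse, so the 30 libraries may not be independent. For Abca1 the white fat minus muscle difference was -0.82, SE 0.32, adjusted p = 0.188 by edgeR, and for Sqle it was 1.08, SE 0.46, adjusted p = 0.246 by edgeR. With the title number as a block Abca1 gave -0.77, SE 0.36, adjusted p = 0.356, and Sqle 1.12, SE 0.50, adjusted p = 0.341. Of the 27 genes 0 passed for IgG1 against NTB, where 1.11% of 14898 genes did, and 0 for 3P10 against IgG1, where 0.208% did. At an unadjusted p under 0.05 in edgeR there were 2 of 27 in each, and the share of all genes at that threshold was not counted.

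The arms of the synthesis route in white fat were not compared by a test. In IgG1 against NTB 49.3% of all genes had a positive fold, and their median was -0.01. Of 10 enzymes from squalene to cholesterol 9 had a negative fold in IgG1 against NTB, with a median of -0.22, and 0 were called. Of 7 enzymes to squalene 5 had a positive fold, with a median of 0.04, and Fdft1 was called. Dhcr7, the last step of one branch of the route, had 29.3, 23.9, 12.9, 25.5 and 29.4 CPM in IgG1 and 40.9, 38.7, 33.8, 41.6 and 39.5 CPM in NTB, with no overlap, at -0.69, SE 0.21, adjusted p = 0.0562 by edgeR. Its 3P10 levels were 49.3, 26.6, 24.3, 36.8 and 39.6 CPM, at 0.55, SE 0.21, adjusted p = 0.115 by edgeR against IgG1. Insig1, the sterol-sensitive brake on SREBP2, had 316, 91.6, 170, 402 and 484 CPM in 3P10, 265, 135, 68.0, 144 and 173 CPM in IgG1 and 220, 397, 284, 209 and 345 CPM in NTB. In IgG1 4 of 5 libraries lay below all NTB libraries, and 3P10 ran across both, at -0.89, SE 0.40, adjusted p = 0.156 by edgeR for IgG1 against NTB and 0.90, SE 0.40, adjusted p = 0.159 by edgeR for 3P10 against IgG1. In 3P10 against NTB white fat 0 of 27 genes were called, as were 0 of all genes, and 0 of 27 had an unadjusted p under 0.05.

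**Figure D5:**
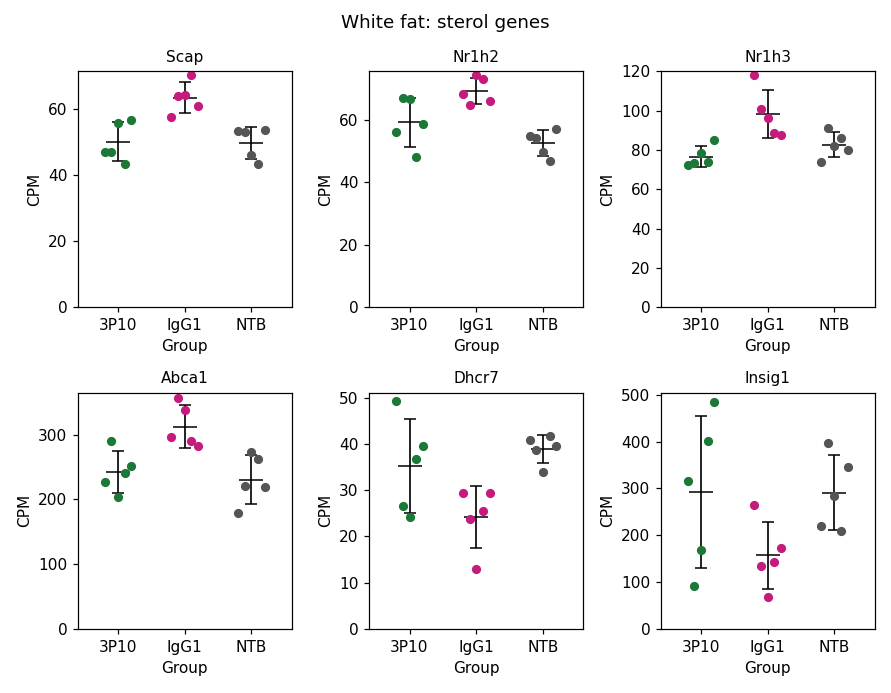
CPM of 6 genes in each white fat library (points) with the group mean and SD (bars), for 3P10, IgG1 and NTB (n = 5 each). IgG1 is above NTB in every library for Scap, Nr1h2 and Abca1 and below it in every library for Dhcr7, while Insig1 and Nr1h3 overlap.

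Sterol release and lysosomal transfer gave 1 call of 9 in IgG1 against NTB white fat and 2 of 9 in 3P10 against IgG1. Of all genes 8.64% and 7.42% were called in these comparisons. Npc1, which exports cholesterol from the lysosome, had 43.7, 40.0, 31.8, 37.8 and 39.9 CPM in 3P10, 40.4, 81.7, 79.3, 61.3 and 68.4 CPM in IgG1 and 33.8, 35.7, 36.7, 46.6 and 38.4 CPM in NTB. All IgG1 libraries but replicate 1 lay above the others, at 0.79, SE 0.16, adjusted p = 0.0122 by edgeR against NTB and -0.78, SE 0.16, adjusted p = 0.0197 by edgeR for 3P10 against IgG1. The call of Npc1 against NTB held with any of the 10 libraries left out. In the other comparison it ended without 3P10 replicate 3 or IgG1 replicate 2, at up to 0.0599. Without IgG1 replicates 2 and 4 together the folds were 0.72, adjusted p = 0.0690 and -0.70, adjusted p = 0.105 by edgeR. Npc1 also rose in IgG1 against NTB muscle, at 0.58, SE 0.16, adjusted p = 0.0472 by edgeR, a call that ended when any of 9 of the 10 libraries was left out, all but IgG1 replicate 1, and in 5 of 7 other fits. Without the 4 muscle libraries that stood apart it gave 0.49, adjusted p = 0.102. Gramd1b, which moves sterol from the plasma membrane, fell in 3P10 against IgG1 white fat by 1.19, SE 0.34, adjusted p = 0.0476 by edgeR, and Rnf139, a sterol-sensing ubiquitin ligase, rose in IgG1 against NTB by 0.31, SE 0.08, adjusted p = 0.0379 by edgeR. Without IgG1 replicates 2 and 4 Gramd1b gave -0.67, adjusted p = 0.333, and Rnf139 0.27, adjusted p = 0.190.

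Without IgG1 replicates 2 and 4 of white fat, the edgeR folds of IgG1 against NTB were 0.54, adjusted p = 0.151 for Fdft1, 0.29, adjusted p = 0.206 for Scap and 0.40, adjusted p = 0.0994 for Nr1h2. Those of 3P10 against IgG1 were -0.65, adjusted p = 0.130 for Fdft1, -0.28, adjusted p = 0.247 for Scap and -0.39, adjusted p = 0.130 for Nr1h3. Single libraries also ended calls. That of Nr1h2 ended without IgG1 replicate 4 or NTB replicate 3 or 4, at up to 0.0650, and that of Fdft1 in 3P10 against IgG1 without 3P10 replicate 3 or IgG1 replicate 2 or 4, at up to 0.0622. Those of Fdft1 and Scap against NTB ended without IgG1 replicate 2, 4 or 5 or NTB replicate 1, 2, 3 or 4, at up to 0.0767 and 0.109. Those of Scap and Nr1h3 in 3P10 against IgG1 ended without 3P10 replicate 1, 2, 3 or 4 or IgG1 replicate 2, 4 or 5, at up to 0.125 and 0.0935. Fibroblast marker sums in white fat were 1505 to 2991 CPM in 3P10, 615 to 1679 CPM in IgG1 and 2495 to 3636 CPM in NTB. Of these 6 genes 3 fell in IgG1 against NTB, and 3 rose in 3P10 against IgG1. Brown adipocyte sums were 163 to 1029 CPM in 3P10, 119 to 4768 CPM in IgG1 and 187 to 1021 CPM in NTB. Keratinocyte and mammary epithelium sums were 7.09 to 23.9 CPM in 3P10, 6.59 to 974 CPM in IgG1 and 4.03 to 30.2 CPM in NTB. Macrophage sums were 326 to 689 CPM in 3P10, 177 to 386 CPM in IgG1 and 288 to 511 CPM in NTB. Of 8 macrophage markers 1 had a positive fold in IgG1 against NTB, and that 1 was called. In 3P10 against IgG1, 7 of the 8 had a positive fold, with 3 called higher and 1 lower. The part of these cell types in the white fat results was not tested.

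The members not yet described passed in no comparison in any tissue. Among enzymes to squalene, the kinase gene Mvk gave folds from -0.15 to 0.15 over the 9 comparisons. Pmvk, the next kinase, reached 0.40 in IgG1 against NTB brown fat, adjusted p = 0.235 by edgeR. Mvd, which decarboxylates the product, gave -0.42 in IgG1 against NTB white fat, adjusted p = 0.271, and 0.53 in 3P10 against IgG1 white fat, adjusted p = 0.174 by edgeR. Idi1, the isomerase that makes the activated prenyl unit, gave -0.45, adjusted p = 0.212 in IgG1 against NTB white fat and -0.58, adjusted p = 0.328 in muscle by edgeR. In 3P10 against IgG1 white fat Idi1 gave 0.56, adjusted p = 0.132 by edgeR.

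Past squalene, Cyp51, the lanosterol demethylase, had 82.8, 48.4, 33.6, 56.2 and 53.1 CPM in 3P10 white fat and 42.1, 49.5, 24.7, 42.01 and 34.6 CPM in IgG1 white fat, at 0.51, adjusted p = 0.128 by edgeR. These groups overlapped. Msmo1, which starts the removal of the C4 methyl groups, ranged from -0.29 to 0.25 over the 9 comparisons, Hsd17b7 from -0.36 to 0.37, and the isomerase gene Ebp from -0.17 to 0.21. Sc5d ranged from -0.33 to 0.32, and the reductase gene Tm7sf2 from -0.31 to 0.32 over the 6 comparisons in which it was tested. A p that misses the threshold does not show that these genes were unchanged.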

How the data were processed

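RNA of brown fat, white fat and gastrocnemius muscle was sequenced in 47 libraries. The authors deposited raw counts of reads for each gene symbol in each library, per the file headers. Per the labels' protocols, brown fat libraries came from a 3′ kit with molecular identifiers (QuantSeq) and the others from a directional whole-transcript kit. Per the submitters' processing notes, the authors used Trim Galore, STAR 2.6.0a, featureCounts 1.6.2, edgeR 3.22.3 and build mm9; the annotation, strand setting and any collapsing by identifier are not given in the sources used here. If brown fat reads were not collapsed, PCR copies are among them.

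Each tissue was fitted apart in R 4.3.3 with edgeR 4.0.16 (quasi-likelihood test, TMM factors, filterByExpr with minimum count 10 and minimum total 15), with 3 groups in 1 model. Tests were 2-sided, and SE is the fold over the square root of F. White fat and muscle were also fitted together for tissue-by-group interactions. Alternatives were DESeq2 1.42.0, RLE factors, no filter, at least 1 CPM in 5 libraries, the compared groups alone, a replicate block, the muscle marker score as a term in brown fat, each library left out, and libraries that stood apart left out; leaving out white fat titles numbered 14, 15, 16 and 23 was added after seeing the data. The test was also run on simulated counts, drawn independently for each library, with no library set apart and no shared numbers. That run is not reported here and does not bear on how well the calls hold.

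Values per library are given for genes called in a tissue and genes set beside them by role, and up to 3 called genes per pathway list and comparison. Members, lists and tests were chosen with earlier results of these data known. Promoters came from a RefSeq table of GRCm38.p6 and exon overlaps from GENCODE of GRCm38, used for names only, since the counts are on mm9.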

Additional observations from a re-analysis of the deposited data

Results flagged for a closer look

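Over 228 groups of 5 or 6 libraries, 1 for each tested member in each tissue and group, 11 held a library far from the others by Dixon's criterion at the 95% level. Chance flags about 1 in 20 groups.

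In brown fat, Fdft1 was high in 3P10 replicate 4, at 35.9 CPM against 9.12 to 18.4 CPM in the other 3P10 libraries, and Hsd17b7, an enzyme of C4 demethylation, was high in 3P10 replicate 6, at 67.1 CPM against 26.6 to 35.9 CPM. NTB replicate 2 was high for Nsdhl, at 61.9 CPM against 29.4 to 35.2 CPM, and for Lss, at 34.5 CPM against 12.5 to 17.7 CPM. In white fat, Tm7sf2, a sterol reductase, was low in IgG1 replicate 3, at 3.53 CPM against 9.94 to 11.7 CPM.

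In muscle, NTB replicate 3 was low for Scap at 16.5 CPM (22.9 to 24.5 in the others), for Insig2 at 32.9 CPM (59.8 to 63.5) and for Stard4 at 0.621 CPM (2.92 to 3.67), and high for Ebp, the sterol isomerase, at 9.60 CPM (4.09 to 5.52). Ebp was also high in 3P10 replicate 2, at 8.66 CPM against 4.81 to 5.68 CPM, and Tm7sf2 in IgG1 replicate 1, at 4.02 CPM against 1.12 to 1.89 CPM. Both NTB replicate 3 and 3P10 replicate 2 are among the 4 muscle libraries that stood apart.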

How the results depend on the processing

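No fold reversed its sign among the members with an unadjusted p under 0.05 and the called pathway genes, in any alternative run. In muscle IgG1 against NTB the count of 4 called members was 3 to 6 over the other fits and 2 to 6 with 1 library left out. It was 0 throughout for 3P10 against IgG1 and 3P10 against NTB in muscle, for 3P10 against NTB in white fat and for both interactions.

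In brown fat IgG1 against NTB the count of 1 was 0 in DESeq2, which gave Fdft1 no adjusted p, and 0 to 1 with 1 library left out. The count of 1 in 3P10 against IgG1 was 1 to 3 with 1 library left out, and the 2 in 3P10 against NTB became 1 with the compared groups alone, 1 with the muscle score as a term and 0 to 4 with 1 library left out. In white fat IgG1 against NTB the count of 3 was 6 in DESeq2, 0 without IgG1 replicates 2 and 4, 0 without titles 14, 15, 16 and 23 and 0 to 5 with 1 library left out. For 3P10 against IgG1 the 3 became 1 with no filter, 0 with the compared groups alone, 0 without IgG1 replicates 2 and 4, 0 without the 4 titles and 0 to 3 with 1 library left out. The causes were not tested.

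Same-numbered pairs deviated together (r over 0.1) in 0 of 16 brown fat pairs, 9 of 15 muscle pairs and 8 of 15 white fat pairs. Their median r was -0.03 in brown fat, 0.15 in muscle and 0.10 in white fat. For other pairs it was 0.01, 0.09 and -0.01 in that order. These values do not settle whether the replicate numbers pair the libraries of muscle and white fat. With the replicate block IgG1 against NTB gave 1 brown fat call, 3 muscle calls and 3 white fat calls, 3P10 against IgG1 gave 1, 0 and 2 in that order, and 3P10 against NTB gave 0 in each. The block gave 0 for both interactions. Depth limits brown fat most, where 5 genes tested in the other tissues were not tested.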
